A study of Mus musculus with 8 samples.

Results

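Chromosome folding in late G1 was compared with folding soon after activation in mouse splenic B cells, by setting the 2 Hi-C libraries labelled 33 hours pre-S against the 2 libraries labelled 3 hours. These 4 libraries were taken from a series of 8. The libraries of 10 h took no part in this comparison, and the 2 libraries of undivided cells at 33 h (imminent division) are printed beside a few values as a description only. The question was how the contact maps differed between early activation and the last stretch of G1 before DNA synthesis.

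All cells were naive B cells isolated by negative selection from the spleens of young adult male mice, labelled with a dye that is diluted at each division (CTV) and cultured with lipopolysaccharide (LPS) at 25 ug/ml. The 3 h cells were C57BL/6, were sorted as activated cells that had not divided and carried no reporter. The pre-S cells were C57BL/6 FUCCI, a strain whose fluorescent proteins follow the cell cycle, and were sorted at 33 h as activated, undivided cells high in the G1 reporter and without the reporter of S, G2 and M. These strain names are those of the labels, and the study's methods place its mice on a C57BL/6 Pep3b background. Mouse strain, sort gate and time in culture therefore changed together between the groups and cannot be told apart here. The replicates are called biological by the submitters, and with 2 libraries a group every p-value below measures the spread between these libraries.

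In situ Hi-C fixes chromatin, cuts it with an enzyme (MboI, which cuts at GATC), joins ends that lie close in the nucleus and counts the joined pairs. Chromosomes separate into an A compartment, rich in genes and transcription, and a B compartment, mostly silent and often at the nuclear lamina, and within them into topologically associating domains (TADs) held by cohesin and bounded where CTCF stops it. LPS acts on B cells through Toll-like receptor 4 and NF-kappaB and drives resting cells through a long first G1 phase, in which they grow, raise ribosome output and prepare to divide and, later, to secrete antibody.

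The contact counts were given in bins of 50 kb, so each promoter named here stands for the whole bin around a gene's start. To show how small the promoter itself is within a bin and where the enzyme can cut, the 250 bases before the RefSeq start (build GRCm38.p6) are printed for 4 genes whose bins recur in the results, in lower case with each GATC in capitals. They are Slc39a8, a zinc and manganese importer (chr3:135825029-135825278, plus strand), Eno4, a sperm enolase (chr19:58943175-58943424, plus strand), Ercc6l2, a DNA repair helicase (chr13:63814990-63815239, plus strand), and Twistnb, a subunit of RNA polymerase I (chr12:33429374-33429623, plus strand).
Slc39a8: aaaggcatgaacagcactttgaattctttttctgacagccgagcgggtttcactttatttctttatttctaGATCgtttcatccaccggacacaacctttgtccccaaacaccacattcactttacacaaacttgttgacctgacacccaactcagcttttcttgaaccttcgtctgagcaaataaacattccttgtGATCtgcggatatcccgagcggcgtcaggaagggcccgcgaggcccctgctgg
Eno4: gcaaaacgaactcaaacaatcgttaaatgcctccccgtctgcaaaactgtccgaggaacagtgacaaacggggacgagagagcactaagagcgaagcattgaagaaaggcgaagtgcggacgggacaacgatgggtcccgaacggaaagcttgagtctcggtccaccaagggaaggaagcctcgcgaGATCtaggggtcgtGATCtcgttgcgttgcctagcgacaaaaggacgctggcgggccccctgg
Ercc6l2: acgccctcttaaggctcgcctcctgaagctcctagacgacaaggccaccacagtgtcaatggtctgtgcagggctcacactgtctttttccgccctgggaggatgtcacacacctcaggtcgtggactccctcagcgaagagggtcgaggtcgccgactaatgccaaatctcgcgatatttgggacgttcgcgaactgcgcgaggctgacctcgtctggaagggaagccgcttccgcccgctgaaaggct
Twistnb: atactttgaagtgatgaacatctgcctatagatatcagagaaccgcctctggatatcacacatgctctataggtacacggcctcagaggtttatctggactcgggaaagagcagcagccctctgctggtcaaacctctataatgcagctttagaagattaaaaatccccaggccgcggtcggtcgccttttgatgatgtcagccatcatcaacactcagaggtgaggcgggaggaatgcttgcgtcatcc
GATC was searched as written, which is its own reverse complement. It occurred 2 times before the start of Slc39a8, 2 times before that of Eno4 and 0 times before those of Ercc6l2 and Twistnb, and at least once in 41.9% of the 32851 promoters of the RefSeq table. The bins around these starts held 149, 111, 117 and 109 MboI fragments in that order.

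The 3 h libraries held 88703088 and 170436624 read pairs and the pre-S libraries 117386199 and 105015427. As a check of the label, sequence lost by V(D)J recombination was measured: the D segments of the immunoglobulin heavy chain locus had 45.6% and 44.8% of the coverage of their flanks in the pre-S libraries and 48.2% and 46.8% in the 3 h libraries, while the J segments of the T cell receptor alpha locus had between 112% and 115%. The constant gene Ighm, which recombination leaves in place, had 71.3% and 71.8% in the pre-S libraries and 81.5% and 74.9% in the 3 h libraries, so the heavy chain locus was below its flanks there too. The maps of replicates were more alike than maps of different groups, with a stratum-adjusted correlation of 0.864 at 3 h and 0.863 at pre-S against 0.775 to 0.832 between them. Chi-square per degree of freedom over bin pairs was 1.19 and 1.04 within groups and 1.89 to 2.32 between them. Chromosome 15 from 55 to 72 Mb was left out, because the pre-S libraries held contacts there that join distant places and were at or near 0 in the other libraries. Outside that segment, 5 bins had interchromosomal coverage at least 1 log2 unit higher in both pre-S libraries than in either 3 h library, and 0 bins had it lower by as much.

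Pre-S cells had more contact in the middle range and less at long range. Mean contact density was higher than at 3 h from 50 kb to about 5 Mb and lower beyond, though between adjacent bins the second pre-S library lay below the second 3 h library. The ratio of the group means was 1.02 between adjacent bins, 1.16 from 0.55 to 0.7 Mb, 1.19 from 1.2 to 1.45 Mb, 0.995 from 5.45 to 6.55 Mb and 0.892 from 24.35 to 29.35 Mb. Cis pairs at above 500 kb to 1.5 Mb made up 8.36% and 8.26% of the cis pairs at 3 h and 9.80% and 9.79% at pre-S. Those beyond 20 Mb made up 29.1% and 29.0% at 3 h and 26.5% and 27.0% at pre-S. The groups did not overlap in either share, and the gap was several times the difference between replicates.

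**Figure D1:**
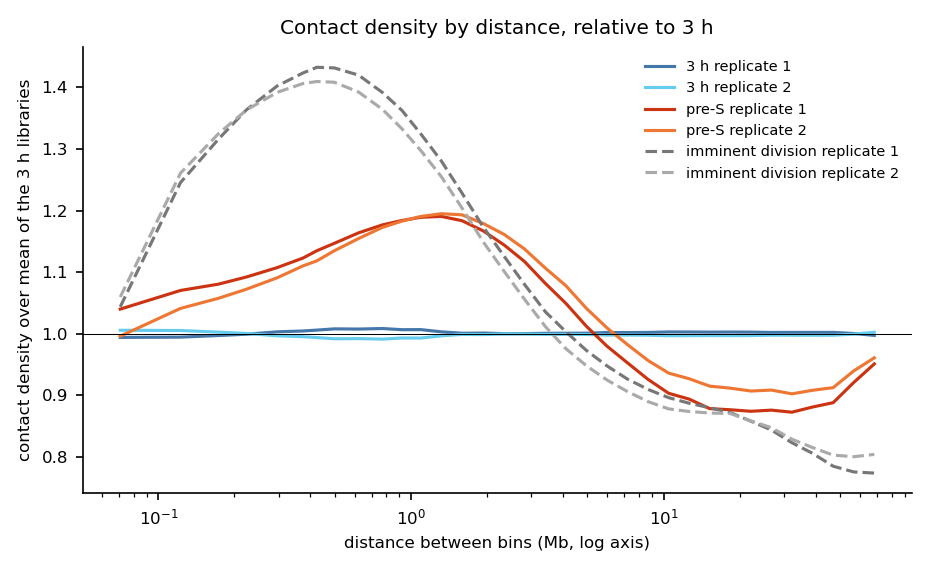
Contact density against distance between bins (Mb, log axis), divided by the mean of the 3 h libraries; lines are single libraries, with imminent division dashed. The pre-S lines peak near 1.19 between 1.2 and 1.45 Mb and lie below 1 from 6.55 Mb on, while the imminent division lines peak at shorter distances.

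The slope of log density on log distance from 0.5 to 7 Mb was −0.969 and −0.963 at 3 h and −1.04 and −1.02 at pre-S, so contact fell off more steeply in late G1. The means were −0.966 ± 0.0047 and −1.03 ± 0.012 (SD, n = 2). The imminent division libraries, which come from undivided cells of the same hour, were steeper still at −1.15 and −1.15. With 2 libraries against 2, the smallest two-sided p that an exact permutation test can give is 0.333, and the slope, the distance shares and the cis share below are described without a call. The share of autosomal pairs that lie in cis did not separate the groups (73.2% and 74.8% at 3 h, 74.1% and 72.1% at pre-S). Minima of the insulation score, which mark TAD borders, numbered 1529 and 1466 at 3 h and 1552 and 1548 at pre-S.

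Contact within the A compartment was lower and contact within the B compartment higher in pre-S cells in the raw maps. Observed over expected contact beyond 2 Mb, among the most A-like and most B-like 20% of bins, was 2.56 and 2.37 for A–A at 3 h and 2.09 and 2.10 at pre-S. For B–B it was 1.64 and 1.80 at 3 h and 2.25 and 2.17 at pre-S. Neither overlapped between groups. The counts of bins with other chromosomes moved with this. Interchromosomal coverage is the number of a bin's read pairs with other chromosomes relative to the typical bin of the library. It was higher in A than in B by 0.86 and 0.73 log2 units at 3 h and by 0.43 and 0.46 at pre-S. Across bins, the change in coverage had a correlation of −0.719 with the component, given as a description since neighbouring bins share libraries and base composition. With this coverage divided out of the maps, both shifts changed sign. A–A was then 0.971 and 1.03 at 3 h against 1.16 and 1.13 at pre-S, and B–B was 3.69 and 3.72 against 3.17 and 3.08. Compartment strength, the ratio of same-compartment to A–B contact, was 20.02 and 19.86 at 3 h and 22.8 and 17.8 at pre-S and did not separate the groups. The cause of the difference in coverage was not tested.

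Differential interactions (DIs) are bin pairs whose count, relative to offsets that set the typical pair of the same abundance and distance class near no change, differed between the groups. Of 1194560 autosomal bin pairs tested with edgeR, 9772 (0.818%) were DIs at a false discovery rate (FDR) of 5%. Pre-S cells held 5182 stronger DIs (0.434%) and 4590 weaker ones (0.384%). The 2 directions lay in different chromatin: 72.6% of stronger DIs joined B to B and 51.5% joined adjacent bins, with a median distance of 50.5 kb, while 88.3% of weaker DIs joined A to A, with a median distance of 350 kb. Bin pairs joining B to B made up 39.7% of all pairs tested and A–A pairs 44.4%. Adjacent bins made up 3.91% of pairs tested, and the median distance of all pairs was 750 kb, longer than in either direction. The median summed count was 371 for stronger DIs, 169 for weaker DIs and 47 for all pairs. Calls of both directions thus lay where counts were high, and the part of depth in their distances was not tested. Among adjacent bins within B, 2501 of 23062 pairs were stronger and 27 were weaker. Among A–A pairs at 100 to 500 kb, 403 of 160963 were stronger and 2291 weaker. With these offsets, promoter bins were rarer at stronger than at weaker DIs. No bin with the start of a protein-coding gene lay at either end of 75.8% of stronger DIs. For weaker DIs this share was 41.8%, and for pairs tested 55.4%.

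With interchromosomal coverage of both bins added to the offsets, 34942 pairs were DIs, and the compartments traded places. Stronger DIs were then A–A in 8618 of 11837 cases and weaker ones B–B in 19052 of 23105. The contrast in promoter bins turned too: 4312 of these stronger DIs and 18485 of the weaker ones had none at either end. Of the DIs above, 2635 (27.0%) were called in the same direction under both sets of offsets, 1182 stronger and 1453 weaker, and 1180 were called in opposite directions, of which 1178 went from stronger to weaker. The stronger DIs called both ways were A–A in 57.7% and A–B in 29.9% and had a median distance of 600 kb. The weaker ones were A–A in 81.8%, at 550 kb. No promoter bin lay at either end of 41.2% of the former and 42.5% of the latter.

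**Figure D2:**
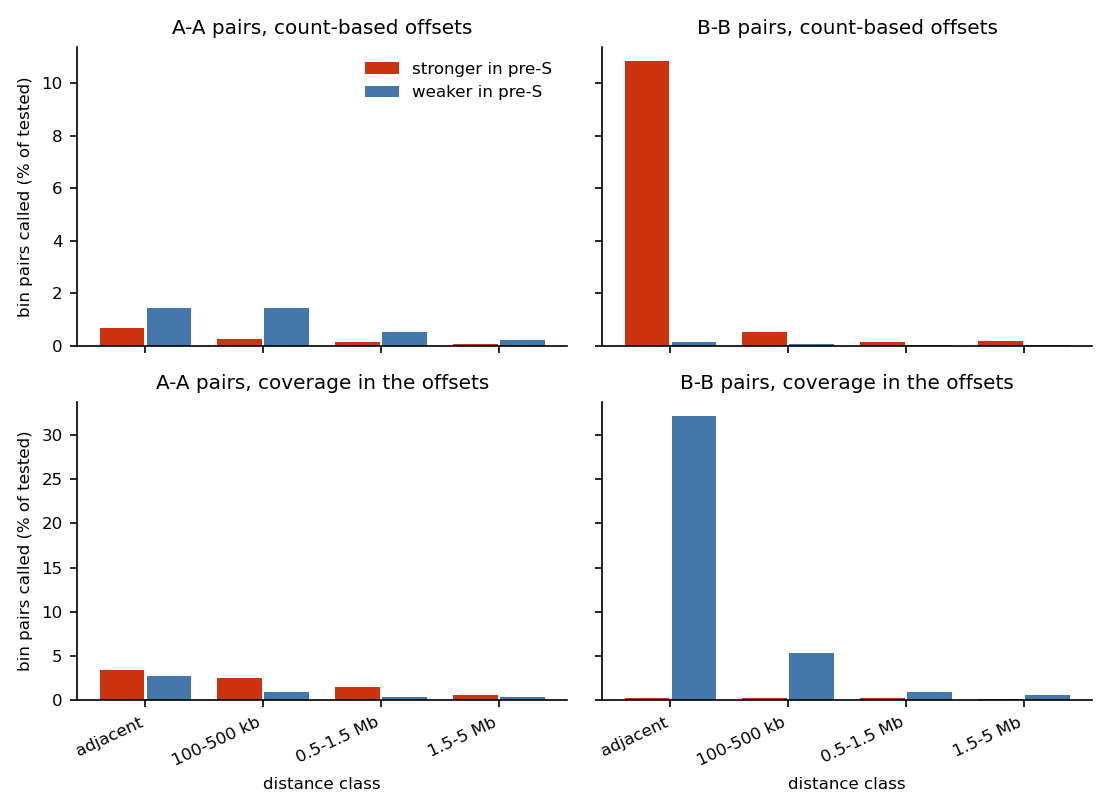
Bin pairs called stronger (red) or weaker (blue) in pre-S, as a percentage of pairs tested, by distance class for A–A pairs (left) and B–B pairs (right), with offsets from the counts alone (top) and with interchromosomal coverage added (bottom; the vertical scales of the rows differ). Adjacent B–B pairs are mostly called stronger in the top row and weaker in the bottom row.

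The count of DIs was lower with any 1 library left out. Such a fit has 1 library in a group and takes its spread from the other group alone. The count was 291 without the first 3 h library, 4490 without the second, 314 without the first pre-S library and 1547 without the second, and DESeq2 called 455, of which 3 were stronger. Across all pairs tested, 147901 had an unadjusted p under 0.05 in edgeR, and 42.8% had libraries that did not overlap between the groups.

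The DIs named by p were picked among those whose libraries did not overlap between the groups, so that separation is no result. Apart from a pair given further on, the stronger DI with the smallest p joined a bin upstream of Ercc6l2 with the bin of its start (chr13:63700302-63749878 and chr13:63799822-63849967). It held 73 and 134 read pairs at 3 h and 205 and 171 at pre-S. After scaling by the offsets these were 96.8 and 90.6 against 200.1 and 198.7, or 2.15-fold up (FDR 1.04e-10, and log2 0.74 with FDR 2.43e-04 with coverage in the offsets). The imminent division libraries held 309 and 416.

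The bin of Hspa12a, an atypical heat shock protein, and Eno4 contacted the bin of Vax1, a homeobox gene of the ventral forebrain, 250 kb away (chr19:58899937-58949956 and chr19:59150197-59200038). Counts were 38 and 68 at 3 h and 130 and 108 at pre-S, or 52.1 and 47.3 against 123.9 and 122.3 after scaling. That is 2.52-fold (FDR 7.67e-09), and the change was 1.58 on the log2 scale with coverage in the offsets. Nkx1-1, another homeobox gene, behaved alike with a bin 150 kb away beside Fam53a (chr5:33399798-33450037 and chr5:33550064-33600253), with 39 and 102 read pairs at 3 h and 152 and 114 at pre-S (2.16-fold, FDR 3.95e-07, log2 1.35 with coverage).

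A pair of adjacent bins without a gene start, 1732 kb from Zeb2, a zinc finger repressor, also rose (chr2:46849868-46900526 and chr2:46900523-46950354). It held 61 and 146 read pairs at 3 h and 198 and 155 at pre-S, 2.02-fold in the scaled counts (FDR 2.84e-08). This change was 0.09 on the log2 scale with coverage in the offsets (FDR 0.841), while coverage of the first bin went from −0.54 to −0.19. A like pair 2029 kb from Pcdh20 (chr14:90500605-90550200 and chr14:90550197-90599925) held 37 and 108 read pairs at 3 h and 135 and 127 at pre-S (2.08-fold, FDR 2.79e-06) and turned to a log2 change of −0.29 with coverage. Both pairs are B–B. In DESeq2 their FDRs were 0.103 and 0.173, and that of the Nkx1-1 pair was 0.109.

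The pair with the smallest p had no read pair at 3 h. It joined adjacent bins of the T cell receptor alpha locus (chr14:53050271-53099878 and chr14:53099875-53150101), in which 4 and 6 variable segments or their pseudogenes start, and held 0 and 0 read pairs at 3 h and 39 and 44 at pre-S. With 3 counts over the group as the bound for a zero, pre-S was at least 32.2-fold higher per read pair sequenced. The bins themselves were nearly unseen at 3 h: interchromosomal coverage of the second bin was −5.27 and −5.91 log2 units there and −0.72 and −0.82 at pre-S. At imminent division the first library held 0 read pairs and the second 27, so the libraries of 1 label differed too. The strain also differs between the groups, so a difference in the sequence of these bins and one in contact cannot be told apart. The pair lost its call with coverage in the offsets (FDR 0.807), though its fitted change, which rests on the zeros of the 3 h libraries, was still upward.

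Weaker DIs were A–A pairs in 5 of the 6 named. The bins flanking the start of Ripor2, an inhibitor of RhoA (chr13:24451159-24500249 and chr13:24599935-24649730), held 186 and 370 read pairs at 3 h and 150 and 108 at pre-S, or 242 and 246 against 148 and 128 after scaling. The fall was 1.76-fold (FDR 6.72e-07), with a log2 change of −0.36 with coverage (FDR 0.122). The imminent division libraries held 213 and 320.

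Beside Prkcb, the protein kinase C that carries B cell receptor signals to NF-kappaB, the bin of Chp2 lost contact with a bin 111 kb from the start of Prkcb (chr7:122199921-122249876 and chr7:122399982-122450147). It held 165 and 313 read pairs at 3 h and 126 and 103 at pre-S (1.73-fold down, FDR 1.29e-05, log2 −0.46 with coverage). The bin of Acvr1b, an activin receptor, lost contact with a bin 150 kb away (chr15:101149929-101200537 and chr15:101300115-101349975), with 91 and 150 read pairs at 3 h and 54 and 45 at pre-S (2.18-fold down, FDR 1.29e-05, log2 −0.92 with coverage). In both cases the scaled counts of the pre-S libraries were nearly equal, at 124 and 121 for Chp2 and 51.6 and 51.1 for Acvr1b.

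The bin of Tomm20, a receptor for import into mitochondria, lost contact with a bin 107 kb from the start of Irf2bp2 (chr8:126700532-126750073 and chr8:126900043-126950056), with 145 and 247 read pairs at 3 h and 81 and 98 at pre-S (1.86-fold down, FDR 6.88e-06, log2 −0.72 with coverage). Without the first pre-S library its FDR was 0.178. A bin that holds the starts of Gcc1, Arf5, Fscn3 and Pax4 lost contact with a bin 450 kb away beside Lrrc4 (chr6:28399976-28449753 and chr6:28849701-28899873), with 58 and 123 read pairs at 3 h and 29 and 36 at pre-S (2.52-fold down, FDR 1.29e-05, log2 −0.98 with coverage). Its FDR was 0.108 without the first pre-S library and 0.0571 in DESeq2.

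The exception in compartment was a B–B pair 421 kb from Fam181b (chr7:93500761-93549569 and chr7:93699922-93750077). It held 35 and 105 read pairs at 3 h and 28 and 14 at pre-S, or 49.1 and 75.1 against 26.5 and 15.8 after scaling. It fell 3.09-fold (FDR 4.82e-06), with a log2 change of −2.63 with coverage in the offsets. Its FDR was 0.0698 without the second 3 h library and 0.116 in DESeq2.

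**Figure D3:**
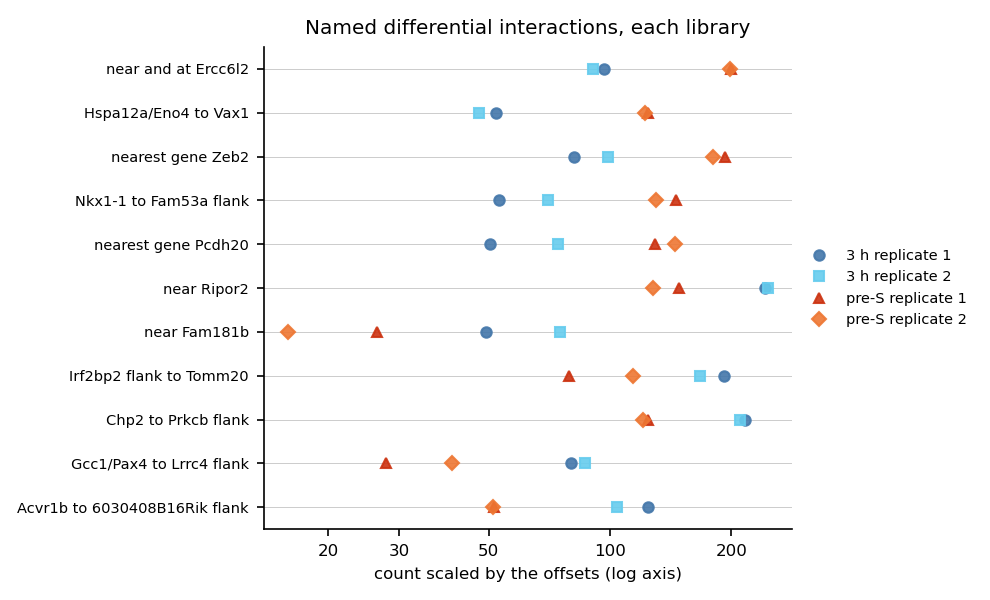
Read pair counts of 11 named differential interactions, scaled by the offsets (log axis), one row per bin pair and one point per library. In each of the upper 5 rows both pre-S points lie right of both 3 h points, and in each of the lower 6 rows left of them. This separation was a condition for naming the pairs.

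DIs gathered in certain windows of 2 Mb, which were picked after their counts were seen. In the windows picked for stronger DIs, these made up 2.46% to 4.77% of the pairs tested, against 0.434% of all pairs. Chromosome 2 from 44 to 46 Mb, with Gtdc1 and Zeb2, held 76 stronger and 25 weaker DIs of 1728 pairs tested. Of the 76, 33 were also called with coverage in the offsets. The stronger ones had a median distance of 2300 kb and a median log2 change of 2.17. The adjacent window from 46 to 48 Mb held 49 stronger DIs, 5 of them also with coverage in the offsets, and 0 weaker ones. Chromosome 3 from 134 to 136 Mb held 50 stronger DIs, 32 of them also with coverage in the offsets, and 6 weaker ones. Its genes include Nfkb1, which encodes the p50 subunit of NF-kappaB, Slc39a8 and Cenpe, a kinetochore motor. Chromosome 13 from 62 to 64 Mb held 43 stronger DIs, 39 of them also with coverage, and 2 weaker ones, over Fancc, Ptch1, the Hedgehog receptor, and Ercc6l2. In the windows with Pcdh20 and with Brinp3 alone, 34 and 30 stronger DIs had a median distance near 50 kb and 0 were called with coverage. Of all adjacent pairs within B, 10.8% were stronger.

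Windows with many weaker DIs were picked in the same way. In them weaker DIs made up 3.21% to 4.64% of the pairs tested, against 0.384% of all pairs. Chromosome 13 from 44 to 46 Mb, with Jarid2 and Atxn1, held 49 weaker DIs and 1 stronger, and 19 weaker DIs there were also called with coverage in the offsets. The window of chromosome 11 from 44 to 46 Mb, with Ebf1, which starts the B lineage programme, held 53 weaker and 0 stronger DIs, of which 2 were also called with coverage. The window of Cd83, an activation marker, on chromosome 13 held 48, of which 5 were also called with coverage. That of S1pr3, Sema4d and Gadd45g on chromosome 13 held 55, 14 with coverage. The window of Tle3, a corepressor, on chromosome 9 held 60 weaker DIs, 24 with coverage, and 1 stronger.

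The bins of 23 genes that make or mark B cells were ends of 1039 pairs tested, of which 27 (2.60%) were weaker and 1 (0.0962%) was stronger. The background was 0.384% and 0.434% over all pairs, and 0.764% and 0.170% over A–A pairs. At least 1 weaker DI touched 12 of the 23 genes. The share of all gene bins so touched is not given, so this count is no result about the list. Bach2, a repressor that holds off plasma cell fate, had 6 weaker DIs. Fcer2a, the low affinity IgE receptor CD23, had 5, and Foxo1, a factor of quiescent B cells, had 4. With coverage in the offsets the same 1039 pairs held 4 weaker and 15 stronger DIs, against 1.93% and 0.991% of all pairs under those offsets, and all 4 of the weaker ones were among the 27. Over A–A pairs those offsets gave 3246 weaker and 8618 stronger DIs of 530174 tested.

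For Bach2, the top DI joined the bin of its outermost annotated start with the next bin (chr4:32199932-32250019 and chr4:32250016-32300150). It held 204 and 435 read pairs at 3 h and 199 and 144 at pre-S, or 263 and 287 against 199 and 172 after scaling (1.49-fold down, FDR 3.94e-04, log2 −0.22 with coverage, FDR 0.379). For Fcer2a it held 133 and 211 read pairs at 3 h and 92 and 93 at pre-S (1.59-fold down, FDR 0.00245, log2 −0.45 with coverage, FDR 0.0794). For Ikzf3, which encodes the zinc finger factor Aiolos, it held 13 and 35 at 3 h and 9 and 7 at pre-S (2.99-fold down, FDR 0.0207) and was still called with coverage (log2 −1.38, FDR 0.0290). These pairs lay lower in both pre-S libraries than in either 3 h library after scaling.

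In the other lists, stronger DIs made up 0% to 0.598% of the pairs, against 0.434% of all pairs and 0.170% of A–A pairs. The background for weaker DIs was 0.384% of all pairs and 0.764% of A–A pairs, and a share near these gives no result about a list. Weaker DIs made up 1.70% of the pairs of 9 myeloid genes, 1.62% for 16 homing receptors and quiescence factors such as Klf2 and Cxcr4, 1.61% for 14 activation and costimulatory surface genes, 1.18% for 14 genes of NF-kappaB subunits and inhibitors, 1.15% for 15 genes of Toll-like signalling and 0.813% for 17 genes of antibody secretion. They made up 0.384% for 25 genes of G1 control, 0.517% for 18 immediate early factors, 0.693% for 23 genes of mitosis, 0.583% for 27 genes of RNA polymerase I and ribosome making, 0.915% for 27 genes of cohesin, condensin, CTCF and lamina, 0.595% for 10 T cell genes and 0.345% for 5 erythroid genes. Once coverage was in the offsets, stronger DIs outnumbered weaker ones in each of these 13 lists but that of NF-kappaB (3 stronger, 8 weaker). Homing and quiescence had 10 against 1 of 802 pairs and activation 18 against 7 of 684. Antibody secretion had 18 against 1 of 861. Under those offsets 0.991% of all pairs were stronger and 1.93% weaker. Over A–A pairs alone, 8618 were stronger and 3246 weaker of 530174 tested. The excess of stronger DIs thus gives no result about these lists. S100a8 and S100a9 share a bin with 2 weaker DIs, and Cd3d and Cd3g share one with 1, so that these DIs count for both genes in the myeloid and T cell shares. Tnfaip3, the feedback inhibitor A20 of NF-kappaB, had 4 weaker DIs, and its top pair kept its call with coverage: 174 and 351 read pairs at 3 h, 154 and 139 at pre-S, 1.46-fold down (FDR 0.00279, log2 −0.59 with coverage, FDR 0.00155).

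The 37 DNA replication genes had the most stronger DIs of any list, 12 of 2008 pairs (0.598%), beside 16 weaker ones (0.797%). Over all pairs the shares were 0.434% and 0.384%, and over A–A pairs 0.170% and 0.764%. The list had, with coverage in the offsets, 48 stronger, all 12 among them, and 9 weaker, so the balance of direction turned. Under those offsets 0.991% of all pairs were stronger and 1.93% weaker. The balance over all A–A pairs turned too, from 903 stronger and 4053 weaker to 8618 and 3246 of 530174. The 12 touched 5 genes, a count without a share over all gene bins beside it. Tyms, which makes thymidylate, had 5, beside 1 weaker DI, and Orc4, a subunit of the origin recognition complex, had 4. The top pair of Orc4 held 61 and 144 read pairs at 3 h and 152 and 129 at pre-S (1.60-fold up, FDR 0.00272, log2 0.93 with coverage), and that of Tyms held 62 and 86 at 3 h and 127 and 104 at pre-S (1.76-fold up, FDR 0.00103, log2 1.03 with coverage). The 16 weaker DIs touched 8 genes, among them Mcm2 of the replicative helicase (4), Pola2 of the polymerase alpha complex (3) and the licensing factors Cdc6 (3) and Cdt1 (1), whose top pair held 103 and 236 read pairs at 3 h and 85 and 92 at pre-S (1.63-fold down, FDR 0.00148, log2 −0.74 with coverage). Npm1, the abundant nucleolar protein, held 12 and 28 read pairs at 3 h and 69 and 43 at pre-S to a bin 450 kb away (2.95-fold up, FDR 5.02e-05, log2 1.89 with coverage).

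Promoter interactivity is the summed count of the cis contacts of a promoter bin that stand above a curve on distance, given here as CPM (counts scaled by the library total after the offsets). Of 11777 promoter bins tested with edgeR, 4293 (36.5%) changed at an FDR of 5%, 2186 with more interaction in pre-S (18.6%) and 2107 with less (17.9%). The changes were small, with a median size of 0.22 on the log2 scale and a largest of 0.91. In 68.9% of all promoter bins the libraries did not overlap between the groups. With coverage in the offsets, 1317 bins were called higher both ways and 1297 lower both ways, and 20 were called in opposite directions. DESeq2 called 1715, and without the first pre-S library edgeR called 2191.

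Of the promoter bins with more interaction in pre-S and no overlap between the groups, Foxp2 and Hsd17b3 had the smallest p. Foxp2, a forkhead factor of the brain (chr6:14900184-14949989), had 31.8 and 37.8 CPM at 3 h and 66.9 and 66.2 at pre-S, 1.87-fold up (FDR 1.06e-22). Its log2 change was 0.91, and 0.47 with coverage in the offsets. Hsd17b3, which makes testosterone in the testis (chr13:64049216-64100044), had 50.6 and 52.3 at 3 h and 86.3 and 89.6 at pre-S, 1.70-fold up (FDR 1.06e-21). Gja1, the gap junction protein connexin 43, had 42.6 and 46.5 against 75.2 and 79.6 (1.72-fold, log2 0.78, and 0.51 with coverage). Without the interaction filter the change of Hsd17b3 was 0.0950 on the log2 scale (FDR 0.0887).

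Hapln1, which links hyaluronan to proteoglycans (chr13:89500350-89548898), rose 1.64-fold. It lies near a bin (chr13:89849685-89900196) whose interchromosomal coverage was −0.37 and −0.43 log2 units at 3 h and 0.87 and 0.92 at pre-S, and the part of that bin in the change was not tested. The change was 0.57 on the log2 scale with coverage in the offsets and 0.27 without the interaction filter. Rgs21 rose 1.61-fold, the bin of Guf1 and Gnpda2 1.55-fold and Fam184a 1.52-fold. The log2 change of Rgs21 was 0.69, and 0.22 with coverage in the offsets. The bin of Hoxa3 to Hoxa11, which pattern the body axis (chr6:52199619-52249939), had 107.6 and 103.8 CPM at 3 h and 153 and 156 at pre-S, 1.47-fold up (FDR 3.92e-18). Of 13 Hox bins tested, 7 had more interaction and 1 less, against 18.6% and 17.9% of all promoter bins, and with coverage in the offsets 3 and 4, against 16.9% and 18.3%. Slc39a8 (chr3:135799840-135850214) had 97.4 and 96.5 at 3 h and 144 and 144 at pre-S, 1.49-fold up (FDR 1.59e-18, log2 0.40 with coverage). Of the 10 bins named by the rule, Prl2c3 of the prolactin family alone lost its call with coverage (1.36-fold up, log2 0.10 with coverage, FDR 0.164).

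Of such bins with less interaction, Nlrp1b had the smallest p. Nlrp1b, an inflammasome sensor (chr11:71199627-71249942), had 86.9 and 79.1 CPM at 3 h and 47.8 and 52.6 at pre-S, 1.64-fold down (FDR 1.59e-18). The bin of Cd300c and Cd300ld, immunoglobulin-like receptors of myeloid cells (chr11:114950183-115000022), had 123.4 and 120.5 at 3 h and 78.2 and 81.3 at pre-S (1.53-fold down). The bin of Oas1h and Oas1g, of the family that senses double-stranded RNA, fell 1.46-fold, and Thy1, a surface protein of T cells, fell from 121.3 and 119.5 to 85.0 and 80.4 (1.45-fold down, FDR 1.52e-15, log2 −0.17 with coverage). The fall of Thy1 was thus smaller with coverage in the offsets.

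The remaining 6 of the rule were Metrnl, a secreted protein (1.57-fold down), 5530401A14Rik (1.499-fold), Tmem92 (1.48-fold), Fhad1 (1.48-fold), Gm853 (1.47-fold) and Cacng4, a calcium channel subunit (1.44-fold), all still called with coverage. Of the 10 bins with less interaction, 6 lie on chromosome 11. By chromosome, 32.0% of promoter bins on chromosome 3 and 32.8% on chromosome 13 had more interaction, while 33.3% on chromosome 7 and 29.5% on chromosome 11 had less. These tilts held with coverage in the offsets, with 161 more and 45 less on chromosome 3, 147 and 34 on chromosome 13, 63 and 283 on chromosome 7 and 56 and 394 on chromosome 11.

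**Figure D4:**
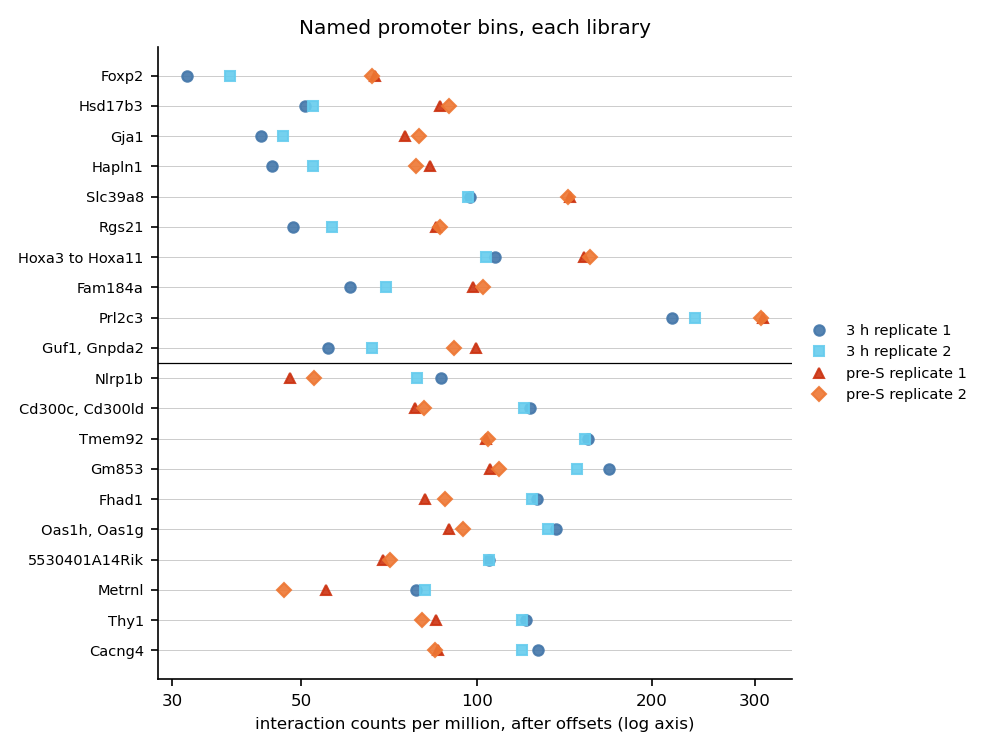
Interaction CPM of the 20 named promoter bins after offsets (log axis), one row per bin and one point per library. In the upper 10 rows both pre-S points lie right of both 3 h points, from Foxp2 at 66.9 and 66.2 against 31.8 and 37.8, and in the lower 10 rows left of them. This separation was a condition for naming the bins.

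Of the 23 promoters of B cell identity genes, 1 had more interaction and 6 had less, against 18.6% and 17.9% of all promoter bins, the background for every list that follows. A list near that background, such as DNA replication at 14.3% and 14.3%, gives no result about its genes. Those with less were Blk, a B cell receptor kinase, Cd79a, the receptor's signalling chain, Cd22, its inhibitory partner, Fcer2a, Pou2f2 and Spib, which shares its bin with Pold1. Blk had 118.9 and 110.9 CPM at 3 h and 88.3 and 87.3 at pre-S (1.30-fold down, FDR 6.60e-09, log2 −0.42 with coverage). The median change of the list was −0.05, and −0.02 with coverage, where 2 had more and 6 less, against 16.9% and 18.3% of all promoter bins under those offsets. Cd22 (log2 −0.11, FDR 0.118) then lost its call, Ikzf3 (log2 −0.20, FDR 0.00992) gained one and Fcer2a was at FDR 0.0498.

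Homing receptors and quiescence factors had 1 with more and 4 with less of 16. Ccr6, a chemokine receptor of mature B cells, had 45.3 and 43.4 at 3 h and 32.6 and 32.0 at pre-S (1.36-fold down, FDR 8.70e-07). Ccr7, S1pr4 and Btg2, an inhibitor of proliferation, were also lower, and Klf4 was higher (1.23-fold up, FDR 4.62e-07). Among 18 immediate early factors, 1 had more (Jun, 1.104-fold) and 4 less (Fosl2, Ier3, Dusp1 and Dusp2). Among 14 activation and costimulatory surface genes, 0 had more and 3 less (Cd44, Tnfrsf13b and Cd70). With coverage in the offsets, the homing list had 2 more and 3 less, the immediate early list 2 more and 1 less and the activation list 3 more and 1 less. Ccr7 (log2 −0.12, FDR 0.184) and S1pr4 (log2 −0.15, FDR 0.0826) then lost their calls, and Ccr6 was at log2 −0.24 (FDR 0.0163).

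Of 14 NF-kappaB subunits and inhibitors, Nfkb1 and Nfkbiz had more interaction and Nfkbib and Tnfaip3 less. Nfkbiz, a nuclear IkappaB protein induced by LPS, had 108.2 and 108.7 CPM at 3 h and 143 and 148 at pre-S (1.34-fold up, FDR 8.31e-12, log2 0.27 with coverage). In the LPS receptor and Toll-like list of 15, Cd180, Ly86, its partner, and Traf6 had more, and the adaptor Myd88 and the kinase Irak2 less. Irak2 had 142.3 and 142.1 at 3 h and 125.1 and 124.8 at pre-S (1.138-fold down, FDR 0.00170). Cd180 and Irak2 kept their calls with coverage in the offsets, and Ly86 (FDR 0.461), Traf6 (FDR 0.0815) and Myd88 (FDR 0.0662) lost them.

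Of 25 genes of G1 control, 4 had more and 4 less interaction: Rb1, the retinoblastoma protein (1.16-fold up, FDR 5.30e-05), Cdkn2c, E2f5 and E2f6 had more, and Cdk2, the kinase of the G1 to S step (1.15-fold down, FDR 3.38e-04), Ccnd1, Ccnd3 and E2f1 less. Of 35 DNA replication genes tested, 5 had more and 5 less. Orc4 had 101.5 and 115.7 CPM at 3 h and 154 and 144 at pre-S (1.36-fold up, FDR 3.63e-12), and Orc3, Rrm2 and Tyms were among the others with more. Pold1, the catalytic subunit of polymerase delta, was lower (1.17-fold, FDR 2.29e-04), together with Mcm2, Mcm7, Cdc6 and Cdt1. Of 23 genes of mitosis, 5 had more, led by Cenpe (1.29-fold up), and 6 less, of which Cdc20 (1.143-fold down) had the smallest p. With coverage in the offsets the counts were 5 and 5 for G1 control, 6 and 7 for DNA replication and 7 and 2 for mitosis.

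Growth and secretion genes had single large movers. Of 27 genes of RNA polymerase I and ribosome making, 6 had more and 4 less. Pes1, which matures the large ribosomal subunit, had the largest fall of any listed gene. It had 30.7 and 29.7 CPM at 3 h and 16.3 and 16.7 at pre-S (1.82-fold down, FDR 1.36e-13). Its read counts were 248 and 481 at 3 h and 190 and 167 at pre-S. The pre-S counts lie under the limit of 200 for a promoter bin, so the bin entered the test through its 3 h libraries. Its rank is therefore no result about the gene. Twistnb rose from 112 and 119.8 to 150.4 and 147.6 (1.28-fold, FDR 3.46e-09, log2 0.44 with coverage). Of 17 genes of antibody secretion, 3 had more, Prdm1, Sdc1, the plasma cell marker CD138, and Edem3, and Hspa5, the chaperone BiP, had less. Under the offsets with coverage 4 had more and 0 less, and Edem3 (log2 −0.01, FDR 0.901) and Hspa5 (log2 −0.13, FDR 0.108) were not called. Of 27 genes of cohesin, condensin, CTCF and lamina, 7 had more, among them Rad21, Stag1, Pds5a and Pds5b, and 5 less, among them Ctcf (log2 −0.13) and Dnmt1. With coverage in the offsets 5 had more and 3 less, and Rad21 (log2 0.16, FDR 0.0858), Pds5b (log2 −0.02, FDR 0.832) and Ctcf (log2 −0.05, FDR 0.575) were not called. Pds5a, a cohesin regulator, was 1.21-fold up (FDR 9.38e-07).

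In the lists of other cell types, 0 of 10 T cell genes had more and 2 less (Thy1 and Lck), 0 of 9 myeloid genes had more and 3 less (Elane, S100a8 and S100a9, the last 2 sharing a bin), and 2 of 5 erythroid genes had more, among them Hbb-bs, and 0 less. The counts of more and less, with coverage in the offsets, were 0 and 3 for T cell genes, 1 and 1 for myeloid genes and 1 and 0 for erythroid genes, and S100a8, S100a9 and Hbb-bs lost their calls. Contact counts hold no RNA, so these values give no measure of such cells in the sort, and their part in the results was not tested.

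Of 9 loci that the study follows, 8 were tested and 3 changed in promoter interaction, all 3 upward. That share of 37.5% is near the 36.5% of all promoter bins that changed, so the count gives no result about these loci. Beside Twistnb, Prdm1, which encodes Blimp-1, the switch to antibody secretion, had 86.6 and 104.0 CPM at 3 h and 123.6 and 119.9 at pre-S (1.26-fold up, FDR 4.86e-07), in the bin of its outermost annotated start (chr10:44500185-44550854); its RefSeq start lies in another bin. Id2, an inhibitor of E proteins, had 136.6 and 146.4 at 3 h and 156.5 and 163.6 at pre-S (1.124-fold up, FDR 0.00370). The rise of Id2 had an FDR of 0.0804 without the first 3 h library, 0.0692 without the second pre-S library and 0.189 in DESeq2.

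The other loci were near no change. Bach2 had 215 and 223 against 209 and 208 (log2 −0.08, FDR 0.184), Bcl6, the repressor of the germinal centre, 197 and 194 against 198 and 201 (log2 0.03, FDR 0.641), Ebf1 191 and 196 against 193 and 185 (log2 −0.03, FDR 0.617) and Pax5, the guardian of B cell identity, 169 and 177 against 177 and 172 (log2 0.01, FDR 0.890). The change of Bach2 was called with TMM factors (log2 −0.14, FDR 0.00954). Ell2, an elongation factor used for antibody secretion, had 39.6 and 37.2 against 41.3 and 40.4 (log2 0.10, FDR 0.301, and 0.0237 without the interaction filter). For Bach2, Bcl6 and Ell2 the groups did not overlap but lay close, and for Ebf1 and Pax5 they overlapped. Myc lies in the stretch of chromosome 15 that was left out and was not tested. Twistnb, Prdm1, Id2, Ell2 and Pax5 had 0 DIs at their promoter bins, while Bcl6 had 2 weaker ones and Ebf1 had 1. These counts changed with coverage in the offsets, where Twistnb had 3 stronger DIs, Id2 had 3 and Prdm1 had 1. Bcl6, Ebf1, Ell2 and Pax5 had 0 DIs under those offsets.

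Compartments were described by a component, positive in A, that is the leading axis of correlation between the cis profiles of 100 kb bins. Replicates correlated at 0.998 and 0.999 across bins and the group means at 0.994, as a description. Of 23379 bins tested with limma, 5979 (25.6%) moved at an FDR of 5%, 2647 toward A (11.3%) and 3332 toward B (14.3%). The median move of called bins was 0.168. The component came from maps without coverage divided out, and the part of coverage in these moves was not tested. Few crossed zero: 121 bins (0.518%) left B for A and 244 (1.04%) left A for B, by the sign of every library, of which 113 and 225 also passed the FDR. In bins of 250 kb, 3836 moved toward A and 2415 toward B, so the split of direction depended on the bin size, and 30 bins left B for A and 205 the reverse. Without the second 3 h library 196 bins left B for A, and without the second pre-S library 1713 moved toward A.

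The bin of Habp2, a plasma serine protease (chr19:56200026-56299811), went from −0.240 and −0.177 at 3 h to 0.392 and 0.381 at pre-S (difference 0.595, FDR 1.04e-05). The bin of Hspa12a and Eno4 (chr19:58899937-59000102) went from −0.3325 and −0.1985 to 0.168 and 0.252 (FDR 1.10e-04) and stayed in A at imminent division, at 0.229 and 0.209. There Habp2 was at 0.0291 and 0.0558, Pard3b at 0.0143 and 0.0136, Grik4 at 0.409 and 0.396, Cbln2 back in B at −0.846 and −0.690 and 5530401A14Rik back in B at −0.211 and −0.186. Cbln2, which organises synapses, went from −0.281 and −0.412 to 0.351 and 0.0829 (FDR 4.22e-04), but its FDR was 0.166 and 0.226 without either 3 h library and its pre-S replicates lay far apart. Pard3b, Grik4, a kainate receptor, and 5530401A14Rik moved by 0.430, 0.423 and 0.429. At pre-S the last of these was at 0.0061 and 0.0296, just above zero.

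From A to B, the bin of Rasgef1b (chr5:99650100-99749879) went from 0.358 and 0.414 to −0.0097 and −0.106 (difference −0.443, FDR 7.08e-05). Corin, a protease of the heart, went from 0.443 and 0.426 to −0.0044 and −0.0023 and Ttc1 from 0.404 and 0.3985 to −0.0097 and −0.0116, both hardly past zero. Ramp3, which modifies peptide hormone receptors (chr11:6650080-6750182), went from 0.154 and 0.180 to −0.240 and −0.231 (FDR 4.09e-05), clearly into B. Jrkl and Ccdc82 moved by −0.437 and a bin with Ddx25, Pus3, Hyls1 and 3 Pate genes by −0.428. Of the 244 bins that went to B, 17 held olfactory or vomeronasal receptor genes, against 1 of 121 to A and 2.10% of all bins.

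Domain borders were compared by the log2 ratio of contacts of a 100 kb region with 1 Mb upstream over 1 Mb downstream, in which a strong border has a ratio far from 0. Of 22616 regions tested with edgeR for a fold change over 1.1, 2686 (11.9%) changed, 1307 to a stronger bias in pre-S (5.78%) and 1379 to a weaker one (6.1%). The ratio changed side in 564. The test was of the ratio with its sign. Stronger or weaker was assigned by the size of the ratio, and a change in that size was not itself tested. The median size of the ratio was 0.307 and 0.308 in the 3 h libraries and 0.333 and 0.325 in the pre-S libraries. Coverage was not entered in the border test either. Without a fold change threshold 6444 regions changed, and without the first pre-S library 1789.

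The largest gain by p lay 24.9 kb from the start of Slc39a8 and within 500 kb of Nfkb1 (chr3:135850211-135950291). Upstream and downstream counts were 723 and 962 in the first 3 h library, 1470 and 1679 in the second, 886 and 2365 in the first pre-S library and 760 and 1977 in the second. The ratio went from −0.41 and −0.19 to −1.42 and −1.38 (change −1.12, FDR 3.78e-17), and it was −1.19 and −1.16 at imminent division. A region by Cry1, a repressor of the circadian clock (chr10:85199910-85299586), went from −0.56 and −0.715 to −1.56 and −1.515 (change −0.88, FDR 4.78e-11).

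At Syk, the kinase that starts B cell receptor signalling, a region 66.5 kb from its start (chr13:52649685-52749991) turned from 0.30 and 0.28 to −0.355 and −0.32 (change −0.63, FDR 5.36e-11). The region of Hspa12a and Eno4 turned from 0.295 and 0.29 to −0.41 and −0.43 (change −0.71, FDR 3.21e-10). On chromosome 1 a region with Sde2, Lefty1 and Lefty2, inhibitors of Nodal (chr1:180850079-180949920), turned from 0.20 and 0.27 to −0.40 and −0.35, and the region next to it with Ephx1, a hydrolase of epoxides, from 0.39 and 0.52 to −0.285 and −0.27. The latter counts as weaker because its ratio came closer to 0, though both neighbours turned to the same side.

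Weaker borders included a region with Pdhx and Apip, whose neighbour within 100 kb is Cd44, the hyaluronan receptor raised on activated lymphocytes (chr2:102999967-103100073). Its ratio went from 1.98 and 2.04 to 1.23 and 1.27 (change −0.77, FDR 1.87e-13). A region of Cracr2a, a regulator of calcium entry, within 500 kb of the cyclin D2 gene Ccnd2 (chr6:127500156-127600297) went from 0.715 and 0.90 to −0.06 and −0.10 (change −0.91). Regions by Olfr267 (chr4:58799838-58900081) and by Arid5b (chr10:68100430-68199858) went from −1.49 and −1.59 to −0.51 and −0.72 and from −0.895 and −0.94 to −0.225 and −0.25.

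**Figure D5:**
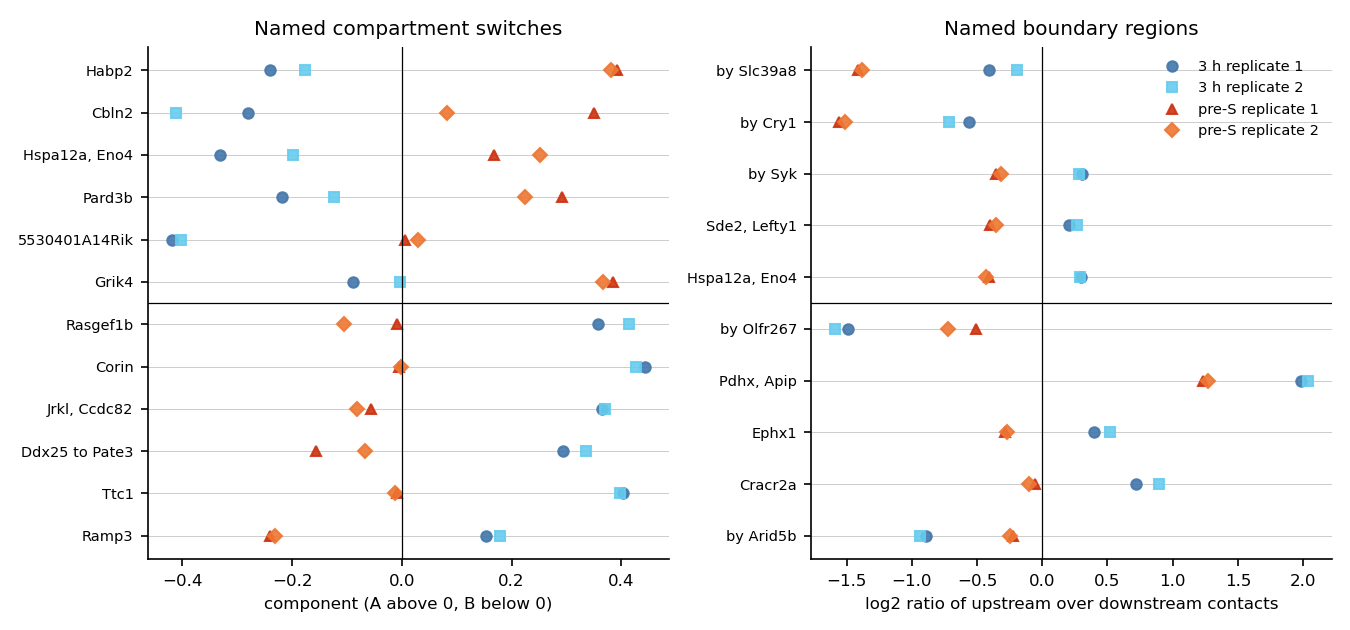
Left, compartment component of the 12 named bins (A above 0, B below 0); right, log2 ratio of upstream over downstream contacts of the 10 named border regions (the upper 5 stronger and the lower 5 weaker in pre-S); one point per library. The bin of Habp2 moves from −0.240 and −0.177 to 0.392 and 0.381, and the region by Slc39a8 from −0.41 and −0.19 to −1.42 and −1.38.

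Borders at the promoters of the loci named above changed in 3 of the 8 measured, against 11.9% of all regions. The region of Bach2 went from −0.535 and −0.42 to −1.004 and −1.05 (change −0.56, FDR 2.79e-09), a stronger bias downstream into the gene, while its promoter interaction and compartment component were not called. That of Twistnb went from 0.75 and 0.76 to 1.18 and 1.09 (change 0.38, FDR 0.00116), also stronger, and that of Bcl6 from −2.87 and −3.08 to −2.56 and −2.52 (change 0.45, FDR 9.28e-05), a weaker bias. Ebf1 held one of the steadier borders, at −2.49 and −2.51 against −2.57 and −2.53. In the compartment component, Bcl6 moved toward A (difference 0.126, FDR 0.0224) and Ell2 toward B (difference −0.178, FDR 0.00359), and the other 6 had an FDR above 0.05. These 2 of 8 are no more than the background, which was 25.6% of all bins.

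3 places came up in several readouts. Beside Slc39a8 and Nfkb1 on chromosome 3, pre-S cells had 6 stronger DIs and 1 weaker one at the Slc39a8 bin, 1.49-fold more promoter interaction and a border ratio that changed by −1.12. At Hspa12a and Eno4 on chromosome 19, contact with Vax1 rose 2.52-fold, the bin went from B to A and the border turned side. From Ercc6l2 to Hsd17b3 on chromosome 13, the DI at Ercc6l2 rose 2.15-fold and the Hsd17b3 bin had 5 stronger DIs and 1.70-fold more interaction. The readouts are computed from the same counts, so their joint appearance is no independent support.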

How the data were processed

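In situ Hi-C libraries of mouse B cells were deposited as counts, 1 file per library, of read pairs joining 2 bins of 50 kb. The authors trimmed reads, aligned them to mm10 with bowtie2 through diffHic, marked duplicates with Picard, removed dangling ends and long fragments, and counted without balancing or pooling. Bin positions were rebuilt here from the MboI sites of GRCm38, which mm10 names too. Autosomal bins with gaps or extreme coverage (737 of 48088) and chromosome 15 from 55 to 72 Mb (340 bins) were left out.

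Bin pairs with a summed count of at least 10 and an abundance at least 4-fold over the interchromosomal background were tested with edgeR 4.0.16 (quasi-likelihood, loess offsets, pairs under 1.5 Mb fitted apart) in R 4.3.3. Compartments used limma 3.58.1, borders edgeR with a 1.1-fold threshold and promoter bins (at least 200 counts) edgeR. P-values were adjusted by Benjamini-Hochberg over all features tested, with an FDR threshold of 5%. DESeq2 1.42.0, other offsets, filters, bin sizes, samples in the fit, depth and each library left out were alternatives. Scripts ran in Python 3.11.15 (numpy 2.4.6, pandas 2.3.3) and were tested on simulated data. Among 150000 simulated bin pairs, the DI test recovered 1% of 100 changed by 0.5 log2 units and 19% of 100 changed by 1. For promoter bins these shares were 82.65% and 100%, for borders 32% and 100% and for compartments 100% and 100%. A lack of DIs therefore does not show a lack of change. Totals of 88703088 to 170436624 read pairs set the precision.

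Named items were those with the smallest p in each direction, at most 1 in 2 Mb (6 DIs and 10 promoter bins a direction, without overlap between groups, and 5 borders), the 6 compartment switches a direction with the largest difference at a gene start, the top member of each gene list a direction and 9 loci. DI windows, and DIs and further genes of the lists, were chosen after their values were seen. The comparison, its members and the gene lists were chosen with earlier results of these data known. Replicate numbers did not pair the libraries. A few genes and 1 window are not reported here.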

Additional observations from a re-analysis of the deposited data

Results flagged for a closer look

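In the segment of chromosome 15 that was left out of all tests, the pre-S libraries held contacts between places far apart that the other libraries lacked. Between one pair of places, pre-S replicate 1 held 104 read pairs and pre-S replicate 2 held 98, against 0 in each of the other 6 libraries of the series. Between another pair, the pre-S replicates held 92 and 89, against 1 to 6 in the others. In 7 bins of the segment interchromosomal coverage was also at least 1 log2 unit lower in both pre-S libraries than in either 3 h library. In one of them (chr15:69650272-69700099) it was −5.26 and −5.35 log2 units at pre-S and 0.41 to 0.53 in the other 6 libraries. These values lie outside the comparisons of the report. The pre-S libraries alone are of the FUCCI strain, so strain and cell stage cannot be told apart, and the origin of the contacts was not tested.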

How the results depend on the processing

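Counts of DIs moved most. Against 9772 (5182 stronger, 4590 weaker), DESeq2 gave 455 (3 and 452), TMM factors 24190 (19082 weaker), coverage in the offsets 34942 (11837 and 23105), calls shared with and without coverage 2635 (1182 and 1453; added after seeing the data), loess offsets per distance class 5552 (2692 and 2860), a 2-fold abundance limit 3372 (1884 and 1488), no abundance limit with pairs up to 5 Mb 5540 (3010 and 2530), libraries thinned to the shallowest 6326 (2758 weaker) and 100 kb bins 25226 (11777 and 13449). Leaving out 1 library gave 291 to 4490 DIs, 131 to 2593 stronger and 121 to 1897 weaker. Borders numbered 6444 without a fold threshold (3253 stronger, 3191 weaker), 1671 with 500 kb a side (770 and 901) and 1789 to 2519 with 1 library left out (836 to 1178 stronger). DESeq2 called 1715 promoter bins (948 more, 767 less), and leaving out 1 library 2191 to 3745 (1164 to 1942 more, 1027 to 1803 less). Bins of 250 kb gave 30 switches to A, and with 1 library left out these numbered 125 to 196 and moves toward A 1713 to 3310. With coverage divided out, pre-S minus 3 h was 0.148 for A–A, −0.583 for B–B and −3.05 for compartment strength, which was −1.12 with shared classes (both added after seeing the data) and 5.65 with interchromosomal density taken off. The slope changed by −0.125 over 1 to 10 Mb. Named promoters that turned sign were uncalled: Bach2 (0.0913 with coverage), Bcl6 (−0.0318 with DESeq2, −0.0335 with TMM factors, −0.0282 with coverage), Ebf1 (0.0059 without the interaction filter, −0.0563 to 0.0055 with 1 library left out) and Pax5 (−0.0419 with DESeq2, −0.0454 with TMM factors, −0.0721 with coverage, −0.0012 with the imminent division libraries, −0.0275 to 0.0421 with 1 library left out). The DI near Pcdh20 was −0.29 with coverage. The DIs, borders, bins and promoter bins named by p or size and the loci (list members were run with coverage alone) otherwise kept direction and call in 192 DI, 90 border, 106 compartment and 316 promoter settings, and lost the call in 11, 0, 2 and 6. The cause of these shifts was not tested.

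Same-numbered libraries did not deviate together (correlations −0.0127 to −0.219). A replicate block gave 6721 DIs, 5438 compartment bins, 2691 borders and 3650 promoter bins, and the crossed pairing, added after seeing the data, 7911 compartment bins and 5086 promoter bins. Of the map measures, 100 kb bins were run for the slope only.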
